A study of Mus musculus with 4 samples.

Results

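NR6A1 peaks around Csf1, the gene of macrophage colony-stimulating factor, are described here in mouse mesenchymal stem cells. They were the peaks of chromatin immunoprecipitation followed by sequencing (ChIP-seq) whose midpoint lay in chr3:107000000-108000000 of the mouse build mm9. This gave 38 of 21507 peaks in NR6A1 replicate 1 and 33 of 16160 in NR6A1 replicate 2, or 71 of 37667 peaks in both lists. The members were chosen by the position of their midpoints, and the window by its number of peaks in these lists, so that number is a description and carries no test. The series has 4 libraries of C57BL/6 origin, all from monoclonal immortalized Dicer f/f cells, whose floxed Dicer alleles are described as wild type. In 2 of them the cells had been infected with the puromycin retrovirus pMMP-puro-Flag-HA-NR6A1, and in the other 2 with the pMMP-puro vector. The HA antibody was used for both groups. The 2 peak lists of the NR6A1 group were analysed, and values for the vector group were not analysed here, so no background of the HA antibody stands beside any value below. The tagged receptor was expressed from a retrovirus in cells of 1 clonal origin, and the labels do not say whether the replicates were separate infections.

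NR6A1, also called germ cell nuclear factor, is an orphan nuclear receptor that binds DNA as a homodimer and is known mainly as a repressor of transcription. Its preferred site is a direct repeat of the hexamer AGGTCA with no base between the repeats, and it also binds a single hexamer with an extension on its 5′ side. Csf1 encodes a secreted cytokine that stromal cells make, and its receptor on monocytes, macrophages and osteoclast precursors carries their survival and differentiation signals. In mice, loss of Csf1 causes osteopetrosis through a lack of osteoclasts. Peaks report where the tagged receptor was recovered with chromatin. They do not measure whether Csf1 was expressed or regulated.

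On mm9, Csf1 was placed at about 107.54 to 107.56 Mb of chromosome 3. These bounds are rounded, and distances from Csf1 below are measured from them unless the centre of the interval is named. In the gene order of RefSeq's GRCm38.p6 table, the protein-coding genes near Csf1 on its lower-coordinate side include Ahcyl1, the nearest, then Ubl4b and Slc6a17. Ahcyl1 binds the inositol trisphosphate receptor and Slc6a17 is a vesicular transporter of neutral amino acids. On the higher-coordinate side the next 5 are Eps8l3, a relative of the actin regulator Eps8, and the mu-class glutathione S-transferases Gstm5, Gstm7, Gstm6 and Gstm3. The positions of these genes on mm9 were not used, so no peak is assigned to any of them.

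The upstream sequence of Csf1 is shown because a peak found in both lists lay just beyond the higher end of its rounded interval, and Csf1 is read from the minus strand, so its start is at that end. The sequences come from RefSeq's GRCm38.p6, a different build from that of the peaks, and give the 250 bases before the annotated start, 5′ to 3′. The one for Csf1 is chr3:107760470-107760719, minus strand. The one for Eps8l3 is chr3:107876980-107877229, plus strand, shown beside it because it holds the hexamer AGGTCA, in capitals. Neither was matched to a peak.
Csf1: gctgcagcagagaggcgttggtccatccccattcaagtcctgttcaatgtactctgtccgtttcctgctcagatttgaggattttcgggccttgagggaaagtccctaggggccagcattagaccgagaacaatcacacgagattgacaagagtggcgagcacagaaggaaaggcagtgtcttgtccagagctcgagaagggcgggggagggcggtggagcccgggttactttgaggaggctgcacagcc
Eps8l3: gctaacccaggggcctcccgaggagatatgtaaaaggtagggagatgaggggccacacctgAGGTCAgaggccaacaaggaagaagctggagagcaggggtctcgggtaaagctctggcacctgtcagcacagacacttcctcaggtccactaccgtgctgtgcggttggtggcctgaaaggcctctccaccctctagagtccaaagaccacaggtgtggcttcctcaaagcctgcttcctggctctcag

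Promoters of 300 bases, 250 before and 50 after the start, were searched on both strands for the hexamer AGGTCA, for TCAAGGTCA and for the direct repeat AGGTCAAGGTCA. The longer motifs contain the hexamer. The promoter of Csf1 held none of the 3. Csf1 and the 8 neighbours named above had 15 promoters in the table. The hexamer occurred in 1 of these 15 promoters, that of Eps8l3, where its first base lay 189 bases before the start. Over all 32851 promoters of the table, 16.3% held AGGTCA, 0.423% held TCAAGGTCA and 2 held AGGTCAAGGTCA. These are matches of letters, which describe the windows searched and no binding.

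Within the megabase, NR6A1 peaks were most numerous in the 100 kb that contain the Csf1 interval. The window was picked for its number of peaks in these lists, so a dense part in it is a description. Among 10 bins of 100 kb, the one that contains the Csf1 interval held 15 replicate 1 and 14 replicate 2 peaks. Of these, 4 and 5 touched the rounded interval itself. The bin above it, from 107.6 to 107.7 Mb, followed with 8 and 7. No other bin held more than 4 peaks of either list. The bins from 107.2 to 107.3 Mb and from 107.7 to 107.8 Mb held none in either replicate. The longest stretches without a peak of either list ran over 181.6 kb at chr3:107137059-107318693 on the lower side and over 161.9 kb at chr3:107654119-107816056 on the higher side.

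**Figure D1:**
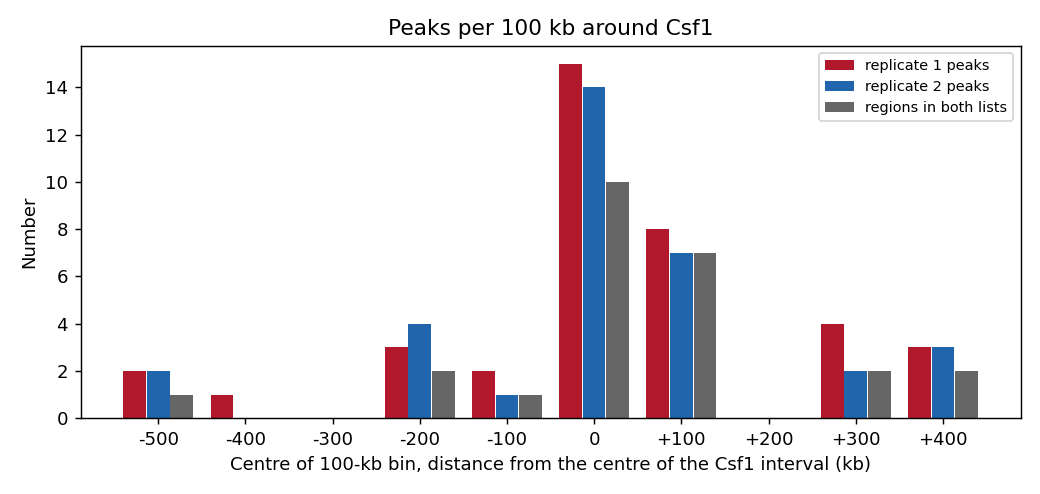
Number of NR6A1 peaks in replicate 1 (red) and replicate 2 (blue), and of regions found in both lists (grey), in 100-kb bins placed by the distance of their centre from the centre of the Csf1 interval (kb). The bin with Csf1 holds 15 and 14 peaks and 10 regions in both lists, and the bin above it holds 8 and 7 peaks and 7 regions in both.

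Overlapping peaks of the lists were merged into 44 regions, of which 27 lay within 100 kb of the Csf1 interval and 17 lay farther out. Of all 44 regions, 25 or 56.8% were found in both replicates (95% Wilson interval 42.2 to 70.3%), against 31.7% of the 28444 regions of the whole lists. Another 11 were found in replicate 1 only and 8 in replicate 2 only. Within 100 kb of Csf1, 18 of 27 regions were in both lists, and beyond it 7 of 17 were. Wilson intervals take in counting error alone and treat regions as independent, which neighbouring regions are not. They are no test of the difference from the whole lists. The lists do not give the read depth.

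Inside the Csf1 interval the lists held 4 peaks of replicate 1 and 5 of replicate 2. The values below are the authors' peak scores, which start just above 200 in both lists. By their range and peak names they are read as MACS values, higher for peaks with stronger evidence. In the whole lists 265 replicate 1 and 211 replicate 2 peaks scored 3100 or more, and no peak of the window did. A score depends on the depth and background of its own library, so ratios between the replicates are given as a description. The peak nearest to the lower bound, at chr3:107540560-107541247 in replicate 1, scored 1090.31 in replicate 1 and 1676.57 in replicate 2. The next, at chr3:107541913-107542811 in replicate 1, scored 614.03 and 657.28 in the same order. It was a near match in score but the replicate 2 peak was the wider one, at 1407 bp against 899 bp in replicate 1.

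The third peak of the interval, at chr3:107543549-107544038 in replicate 1, scored 228.2 in replicate 1 and 385.53 in replicate 2. It was the weakest of those in both lists. The fourth, at chr3:107545852-107547252 in replicate 1, scored 1224.93 in replicate 1 and 557.42 in replicate 2, with a log2 ratio of replicate 1 over replicate 2 of 1.14. So 3 of the 4 pairs in the interval had the higher score in replicate 2, and this one had it in replicate 1. Another region, at chr3:107553596-107554283, was listed in replicate 2 only, with a score of 256.64. All 4 pairs thus lay in the lower part of the rounded interval. For a minus-strand gene that is the side of its 3′ end, but whether these pairs lie within Csf1 was not determined.

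Just above the interval, 2.8 kb beyond its rounded upper bound, lay a region in both lists at chr3:107562776-107563722. Its score was 802.43 in replicate 1 and 874.93 in replicate 2, a log2 ratio of -0.12, among the closest to equal of the window. It is the region nearest to the upper bound in either list and by those bounds the nearest to the start of Csf1, but the bounds are rounded and whether it covers the start was not determined. With the interval widened by 5 kb on either side, an alternative added after seeing the data, this region and one 4.0 kb below the interval fell inside, which made 6 peaks in replicate 1 and 7 in replicate 2. Narrowed by 5 kb on either side, the interval kept 1 and 2 peaks, so the number of peaks on Csf1 itself rests on the rounded bounds.

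**Figure D2:**
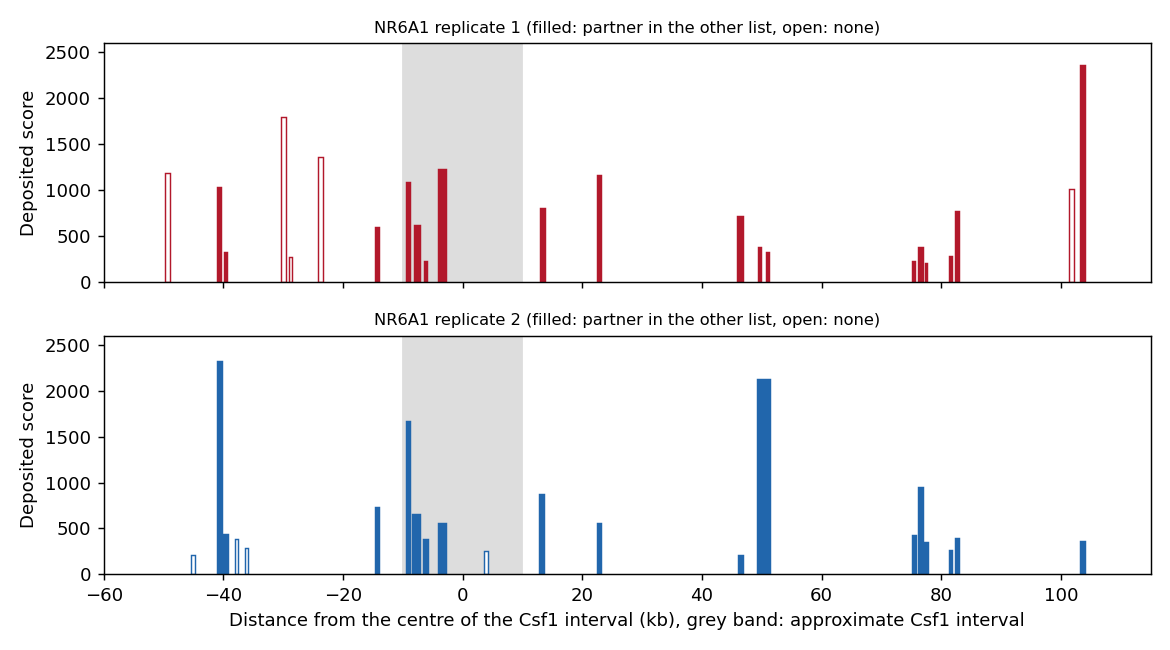
Deposited score of each NR6A1 peak (height) over its true width, by distance from the centre of the Csf1 interval (kb), for replicate 1 (upper panel) and replicate 2 (lower panel), with the approximate Csf1 interval in grey. Filled peaks overlap a peak of the other list and open ones do not. The 4 filled peaks in the interval recur in both panels, while the open replicate 1 peaks with scores of 1792.13 and 1356.39 have no counterpart.

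On the lower side, toward Ahcyl1, 10 regions lay within 50 kb of the interval. Of these, 3 were in both lists, a share close to the 31.7% of regions in the whole lists. The nearest, at chr3:107535332-107535992, scored 595.19 in replicate 1 and 733.27 in replicate 2. Of the other 2, that at chr3:107508881-107509789 scored 1034.75 in replicate 1 and 2325.52 in replicate 2, the highest replicate 2 score of the window and rank 452 in the whole list. Its neighbour 0.2 kb away, at chr3:107509968-107510707, scored 327.17 in replicate 1 and 434.92 in replicate 2. All 3 of these pairs had the higher score in replicate 2.

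The other regions within 50 kb on this side were each in 1 list only. Replicate 1 alone had the peaks at chr3:107519618-107520467, chr3:107521020-107521551 and chr3:107525752-107526740, which follow each other with no replicate 2 peak among them. Their scores were 1792.13, 271.33 and 1356.39. The first of them was the third highest of replicate 1 in the window, and at percentile 94.79 of the whole list. A further replicate 1 peak with no partner, at chr3:107500293-107501064, scored 1186.66. Replicate 2 alone had peaks at chr3:107504582-107505205, chr3:107511970-107512529 and chr3:107513565-107514082, with lower scores of 213.77, 384.76 and 285.79. The lists do not show whether a peak that is missing from one of them fell just short of its minimum score.

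On the higher side, toward Eps8l3, the replicates shared more regions. All 4 regions within 50 kb of the interval were in both lists, as were 6 of the 7 between 50 and 100 kb. Over the whole lists 31.7% of regions were in both, and the difference between the sides was not tested. Beside the region nearest to Csf1 there was one at chr3:107572483-107573186 with scores of 1165.55 in replicate 1 and 554.25 in replicate 2. The next, at chr3:107595944-107596955, scored 715.83 and 214.63 in the same order. Both had the higher score in replicate 1, by a log2 ratio of 1.07 and 1.74.

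The fourth of these regions, at chr3:107599233-107601461, was a single peak of 2229 bp in replicate 2 with a score of 2133.38, the widest of its list in the window. In replicate 1 a pair of narrower peaks, of 611 and 474 bp, lay within it, with scores of 376.62 and 323.19. The log2 ratios of replicate 1 over replicate 2 were -2.50 and -2.72. The same stretch was thus recovered in both lists, but with a different number of peaks and very unequal scores.

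A compact group of 5 regions, all in both lists, lay 65.0 kb above the interval at chr3:107625049-107633010, within 8.0 kb. Its first 3 members scored higher in replicate 2. The first had 229.79 in replicate 1 and 432.04 in replicate 2, the next 382.3 and 953.85, and the third 205.98 and 353.64. The last 2 members scored higher in replicate 1. The fourth had 284.05 in replicate 1 and 259.8 in replicate 2, and the fifth 766.74 and 400.87.

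At the end of the dense stretch, 93.2 kb above the interval, the region at chr3:107653229-107654118 held the highest replicate 1 score of the window. It scored 2366.95 in replicate 1, rank 566 in the whole list, and 360.81 in replicate 2, a log2 ratio of 2.71. A replicate 1 peak with a score of 1010.53 and no partner lay 1.0 kb from it, at chr3:107651328-107652218. The highest peak of each replicate therefore had a partner in the other list, but that partner was at percentile 44.8 of replicate 2 for this region, and at percentile 85.0 of replicate 1 for the highest replicate 2 peak.

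**Figure D3:**
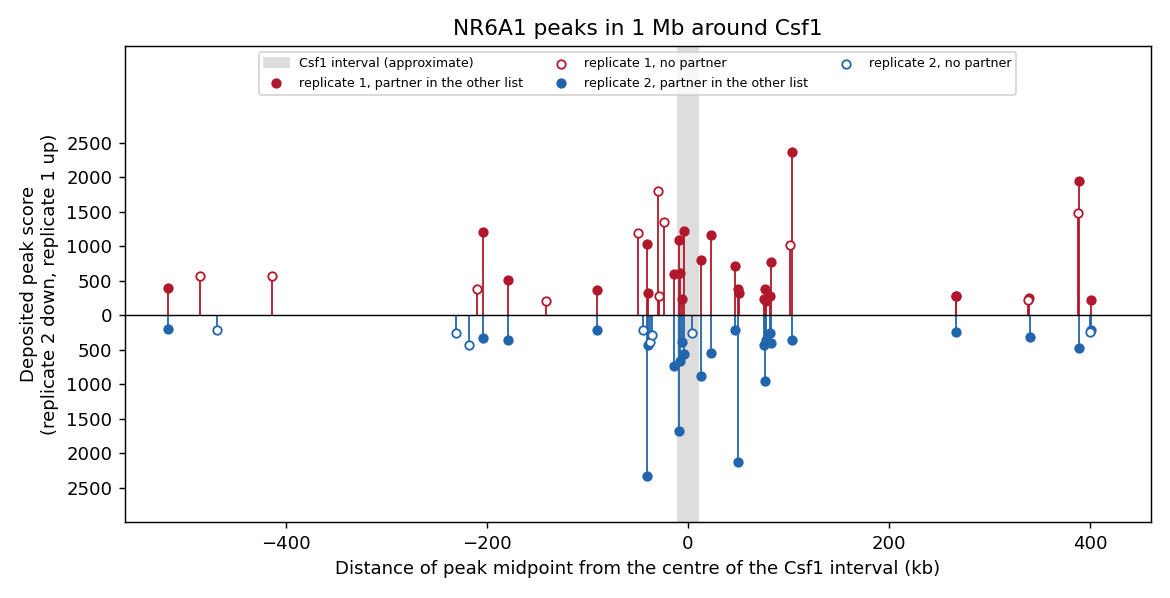
Deposited scores of all 71 NR6A1 peaks of the window by the distance of the peak midpoint from the centre of the Csf1 interval (kb), with replicate 1 drawn upward and replicate 2 downward. Filled points have a partner in the other list, open points have none. Scores above 1000 in replicate 2 occur at 3 peaks, all within 100 kb of the bounds of the Csf1 interval, and in replicate 1 at 12 peaks, of which 9 are within 100 kb of those bounds.

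Farther than 100 kb from Csf1, 14 replicate 1 and 11 replicate 2 peaks made 17 regions, of which 7 were in both lists. Their median score was 385.13 in replicate 1 and 255.69 in replicate 2. Within 100 kb the medians were 664.93 over 24 replicate 1 peaks and 416.46 over 22 replicate 2 peaks. Peaks near Csf1 thus had the higher median in both lists, with wide overlap of the single scores.

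Of the distant regions in both lists, that at chr3:107938926-107939637 stood out in replicate 1 with a score of 1941.75, against 482.37 in replicate 2. A replicate 1 peak with no partner, at chr3:107937494-107938425, lay 0.5 kb from it and scored 1475.35. At chr3:107345344-107347156 the scores were 1208.46 in replicate 1 and 326.11 in replicate 2. Both regions had a log2 ratio near 2, at 2.01 and 1.89. The other 5 distant regions in both lists had scores from 222.91 to 504.35 in replicate 1 and from 201.17 to 364.06 in replicate 2. They lay at chr3:107032834-107033290, chr3:107370517-107371220, chr3:107816057-107817085, chr3:107889383-107890034 and chr3:107950562-107951228. Another shared region, at chr3:107458902-107459399, lay 80.6 kb below the interval, with scores of 361 in replicate 1 and 217.45 in replicate 2. The 10 distant regions of 1 list had scores from 204.28 to 1475.35 in replicate 1 and from 209.69 to 428.76 in replicate 2.

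The regions followed each other closely. With gaps of at most 10 kb, 17 regions formed a single cluster of 72.9 kb at chr3:107500293-107573186 that spans the Csf1 interval, with 13 peaks of each replicate and 9 regions in both lists. The group of 5 regions above Csf1 and one of 3 regions 192.8 kb below it were the other clusters of 3 or more. Another peak of the same list lay within 10 kb, by midpoints, for 31 of 38 replicate 1 peaks or 81.6%, against 47.2% in the whole list. For replicate 2 it was 22 of 33 or 66.7%, against 42.9%. Windows picked for many peaks hold closer peaks by construction, so these shares describe the place and test nothing.

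Peaks of the window had a partner in the other replicate more often than peaks of the whole lists. A partner is a peak that overlaps by at least 1 bp. In replicate 1, 27 of 38 peaks or 71.1% had one (95% Wilson interval 55.2 to 83.0%), against 42.7% of the whole list. In replicate 2, 25 of 33 or 75.8% had one (59.0 to 87.2%), against 56.0%. No test was made, since neighbouring peaks are not replicates. The Wilson intervals treat peaks as independent, which neighbouring peaks are not, so they do not test these differences. The window was also picked for its number of peaks in these lists, so its shares are descriptions. The excess in replicate 1 was smaller or absent when both lists were cut by score. A peak whose partner scored below the cut then counted as having none, such as the replicate 1 peak of 2366.95 with a replicate 2 partner of 360.81. In the upper 50% of both lists by score, 9 of 20 replicate 1 peaks or 45.0% had a partner, against 38.0% of the whole list treated likewise. With only scores of 500 or more in both lists, 7 of 20 replicate 1 peaks or 35.0% had a partner, against 35.2%. For replicate 2 the upper 50% gave 9 of 14 or 64.3%, against 50.2%, and scores of 500 or more gave 7 of 9 or 77.8%, against 50.5%.

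The sharing at Csf1 lay within the range of other crowded places. The 10 other 1-Mb windows with the most peaks, by the sum of both lists, had partners for 41.0 to 72.9% of their replicate 1 peaks, with a median of 56.1%, and 1 of the 10 exceeded the Csf1 window. For replicate 2 they had 50.0 to 82.1%, with a median of 68.9%, and 4 of 10 exceeded it. The Csf1 window itself ranked 10 by replicate 1 peaks, 7 by replicate 2 peaks and 4 by their sum among 2124 windows with a peak, and 1 on chromosome 3 by each of these counts. Tied windows were given the best rank of their tie, and other windows had the same sum of 71 peaks.

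Beside its own whole list, the median score of the window was higher in replicate 1 and lower in replicate 2. The median score was 538.48 in replicate 1 (quartiles 277.73 and 1076.42), against 417.02 in the whole list. It was 364.06 in replicate 2 (quartiles 255.69 and 554.25), against 393.6 in the whole list. In percentiles of their own lists these window medians stood at 62.3 and 45.3. Of the 10 other crowded windows, 0 had a higher median score in replicate 1 and 9 had a higher one in replicate 2. A score of 1000 or more was reached by 12 of 38 replicate 1 peaks or 31.6%, against 15.9% of the whole list, and by 3 of 33 replicate 2 peaks or 9.09%, against 14.0%. The highest scores of the window were 2366.95 in replicate 1 and 2325.52 in replicate 2, against 3218.29 and 3219.64 in the whole lists. At 1000 or more, 7 of the 12 replicate 1 peaks or 58.3% had a partner, against 62.2% of 3424 such peaks in the whole list. All 3 such replicate 2 peaks had one, against 87.6% of 2264 in the whole list. Both counts were close to those of the whole lists.

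The relation of score and sharing in replicate 1 ran the other way from the whole list. The median score was 389.06 for replicate 1 peaks of the window with a partner and 572.73 for those without. Over the whole replicate 1 list the medians were 520.77 with a partner and 363.14 without. In replicate 2 the window had 400.87 with a partner and 256.16 without, in the same direction as the whole list with 510.0 and 314.19. The replicate 1 values rest on 11 peaks without a partner, and this difference was not tested.

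The 27 pairs of overlapping peaks ranked only loosely alike. Their scores had a Spearman rho of 0.36 across pairs, and the 9223 pairs of the whole lists had 0.38. Both are descriptions across peaks of 1 pair of libraries, with no p-value, and pairs that share a wide peak are not independent. The log2 ratio of replicate 1 over replicate 2 had a median of 0.07 in the window (quartiles -0.69 and 0.94, SD 1.28), against 0.00 over all pairs (SD 1.12). Replicate 1 had the higher score in 14 of 27 pairs, against 49.7% of all pairs, and scores were within 2-fold in 17 of 27 or 63.0%, against 65.4%. In these respects the pairs at Csf1 were close to those elsewhere.

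**Figure D4:**
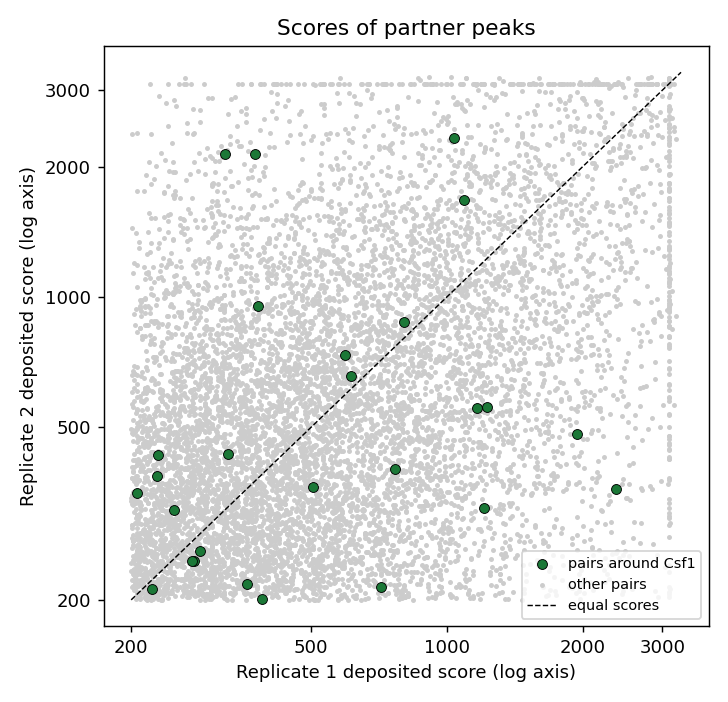
Deposited scores of partner peaks, replicate 1 against replicate 2, both on log axes, for the 27 pairs around Csf1 (green) over the other pairs of the whole lists (grey), with a dashed line of equal scores. The green points scatter on both sides of the line, 14 with the higher score in replicate 1 and 13 with it in replicate 2.

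Partners are defined by overlap, so their midpoints lie close together by construction. Midpoints of partners lay a median of 39.5 bp apart in the window (quartiles 19.2 and 101 bp), against 37.5 bp over all pairs. They were within 100 bp in 20 of 27 pairs or 74.1%, against 81.3% of all pairs. The replicate 2 peak was the wider one in 19 of 27 pairs or 70.4%, against 70.6%. The median width was 627 bp in replicate 1 and 661 bp in replicate 2, against 538 and 613 bp in the whole lists, so the peaks of the window were the wider in both.

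The window ranked 1 on chromosome 3 by its peaks, so fewer peaks in the adjoining windows follow by construction. Peaks were already sparse inside it below 107.5 Mb, where no 100-kb bin held more than 4 of either list. The 1-Mb window below, 106 to 107 Mb, held 0 replicate 1 peaks and 3 replicate 2 peaks, and that from 105 to 106 Mb held 4 of each. Farther down, the window from 103 to 104 Mb held 29 and 16. The window above, 108 to 109 Mb, held 23 and 21, and that from 109 to 110 Mb held 9 and 6. At the lower edge, the first replicate 1 peak inside, 33.0 kb from the edge, scored 389.06, and the last one outside, 1301.7 kb away, scored 363.23. The first replicate 2 peak inside, 33.1 kb from that edge, scored 201.17, and the last one outside, 364.8 kb away, scored 741.58. At the upper edge the last peaks inside scored 222.91 in replicate 1 and 212.42 in replicate 2, both 49.1 kb from the edge, and the first ones outside scored 283.02 and 811.47. No peak lay near enough to an edge for the choice of its midpoint to matter.

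**Figure D5:**
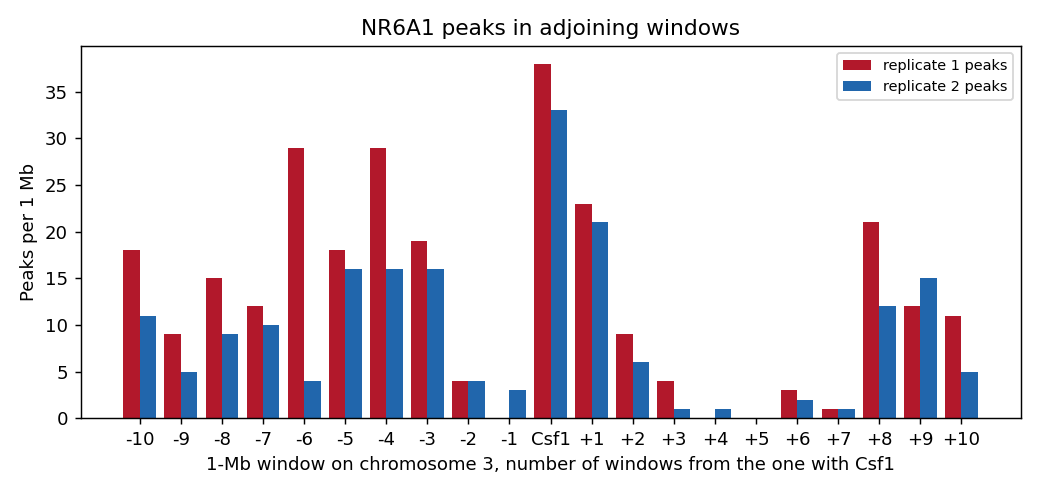
NR6A1 peaks per 1-Mb window on chromosome 3 in replicate 1 (red) and replicate 2 (blue), from 10 windows below to 10 windows above the one with Csf1. The window with Csf1 holds 38 and 33 peaks, the next one below 0 and 3, and the next one above 23 and 21.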

How the data were processed

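NR6A1 ChIP-seq peaks were given as 1 list per replicate, with no pooled list. The submitters' processing notes name Bowtie 0.12.7, MACS and mm9, and no role for any of them. The MACS version, the control library and the peak threshold are not given in the sources used here. The deposited value per peak is a score, which by its range and peak names is read as a MACS value derived from the p-value. It was used as the authors gave it, to rank peaks within a list and to set partners side by side. Fixation lasted 10 min and 5 µg of antibody was used, per the labels' protocols. Positions were written with the first base as 1.

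Peaks were paired by an overlap of at least 1 bp (Python 3.11.15, numpy 2.4.6, pandas 2.3.3, with the same counts from bedtools 2.31.1). Shares carry 95% Wilson intervals (scipy 1.17.1). The pairing code was tested on simulated lists. With 1 list per replicate and no vector list, no test between groups was possible. The members, bounds and lists were chosen with earlier results of these data known. Regions within 100 kb of Csf1, regions in both lists and the 3 highest scores per list are named by rule, with the 5 neighbouring protein-coding genes on either side of Csf1, of which some are not reported here. Other regions, and the comparison with the 10 most crowded windows, were chosen after their values were seen. Promoters came from RefSeq's GRCm38.p6, and no coordinate was moved between builds.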

Additional observations from a re-analysis of the deposited data

How the results depend on the processing

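Alternatives gave 47 values, of which 35 stayed close to those reported, 12 moved and 0 reversed. Most of these values are counts or shares, which cannot change sign. The tally therefore says nothing on whether a share stayed above that of the whole list. In the upper 50% of both lists by score, 9 replicate 1 and 9 replicate 2 peaks of the window had a partner, and with scores of 500 or more 7 and 7, against 27 and 25 as reported. Both settings shorten the lists by construction and drop partners that score below the cut. The share of replicate 1 peaks with a partner was 52.6% with midpoints within 100 bp, 45.0% in the upper 50% and 35.0% at scores of 500 or more, against 71.1% as reported. The whole list gave 34.9%, 38.0% and 35.2% under these settings. At scores of 500 or more the replicate 1 share of the window was thus no longer above that of the whole list. For replicate 2 the share was 57.6% with equal list sizes, against 75.8% as reported, and the whole list then gave 46.8%. With the Csf1 interval narrowed by 5 kb on either side, an alternative added after seeing the data, 1 replicate 1 and 2 replicate 2 peaks touched it, against 4 and 5. Measured from the centre of that interval, the nearest peaks lay 2748 bp away in replicate 1 and 2828 bp in replicate 2, against 0 bp from its bounds. Moving the window by 250 kb, other window sizes, merging within 500 bp and cluster gaps of 5 or 20 kb kept their counts within 1.5 times. No paired analysis was possible because the vector samples, which share the replicate numbers, have no list here. No partner could be counted without one of the replicates. Read depth is unknown.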
